A study of Homo sapiens with 6 samples.

Results

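The genes described here are 37 genes of fatty acid metabolism: 7 of synthesis, 12 of elongation and desaturation, 4 of activation and 14 of beta-oxidation. They were chosen by gene symbol as genes of these pathways, and all 37 were found among the 26364 symbols that the count files list. The samples are 6 RNA-seq libraries of ZR-75-30, an established human breast adenocarcinoma cell line with amplified ERBB2. In 3 libraries the cells had been infected with pLVX-CDK12, a lentivirus that carries CDK12, and in the other 3 with the empty control lentivirus pLVX. Both groups therefore share the cell line, the lentiviral infection and the vector backbone, and since nothing states that replicates are separate infections, each p-value measures a difference against the spread between these libraries. CDK12 is a kinase of transcription elongation, and the study set out to find its targets in this line.

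Fatty acid synthesis starts when citrate is split into acetyl-CoA, acetyl-CoA is carboxylated to malonyl-CoA, and fatty acid synthase joins these units into palmitate. Elongases of the endoplasmic reticulum then lengthen the chain, desaturases insert bonds that make it unsaturated, and acyl-CoA synthetases activate fatty acids for storage, membranes or breakdown. Beta-oxidation runs the other way in mitochondria: the carnitine shuttle brings the acyl chain in, a dehydrogenase, a hydratase, a second dehydrogenase and a thiolase shorten it, and the electrons leave through the flavoprotein ETF. Breast cancers with amplified ERBB2 are known for high fatty acid synthase, and the transcription factor SREBP-1 drives much of the synthetic branch while PPAR alpha and its coactivators drive the oxidative branch.

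The libraries held 23628890 to 26543653 counts with the CDK12 virus and 21178163 to 25014857 with the control virus. CDK12 stood at 2124 ± 116 CPM (counts scaled to library size with TMM factors; SD, n = 3) in the CDK12 libraries and at 77.9 ± 4.61 CPM (n = 3) in the controls, and every library matched its label. Its log2 fold change was 4.77, the two-sided exact permutation p was 0.1, which is the lowest value possible for groups of this size, and the counts do not separate viral from endogenous transcripts. All 8 luminal epithelial markers were detected, with a summed level of 11900 to 12500 CPM in the CDK12 libraries and 13600 to 14200 CPM in the controls. Of these markers KRT8, KRT18, ERBB2 and GATA3 fell and the other 4 were not called. The 5 basal markers summed to 0.371 to 0.409 CPM in the CDK12 libraries and 2.35 to 2.73 CPM in the controls, the 6 fibroblast markers to 60.2 to 71.2 and 46.6 to 51.5 CPM (nearly all COL1A1, which rose, while COL3A1 fell, at -2.44 on the log2 scale), the 5 leukocyte markers to 2.13 to 2.88 and 4.67 to 5.71 CPM, and the 3 endothelial markers to 1.41 to 2.17 and 2.16 to 2.84 CPM, the CDK12 range first. The basal difference was nearly all TP63, with 7, 8 and 6 counts with the CDK12 virus and 52, 50 and 52 with the control virus. The leukocyte difference was that of PTPRC, with 10, 10 and 7 counts against 69, 59 and 74. CD68 was not called, and LYZ went the other way with 6, 9 and 3 counts against 0, 3 and 2. In bulk RNA, fewer cells of a type and less RNA per cell cannot be told apart. Of 4 adipocyte markers, LEP had no count in any library, ADIPOQ had 0, 0 and 1 counts with the CDK12 virus and 5, 1 and 3 with the control virus, and PLIN1, a coat protein of lipid droplets, made up nearly all of a sum of 8.03 to 9.11 CPM in the CDK12 libraries and 4.70 to 4.88 CPM in the controls; the part of these markers in the results was not tested. CDK12 replicate 1 differed from the other CDK12 libraries by a chi-square of 4.201 and 4.304 per degree of freedom over genes, against 2.63 for the remaining CDK12 pair and 2.75 to 2.79 for control pairs.

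Of the 37 genes, 34 passed the filter on low counts and were tested, and 13 of them passed an adjusted p of 0.05 (edgeR quasi-likelihood test, Benjamini-Hochberg over all 14665 genes tested): 6 were higher and 7 lower in the CDK12 libraries. Over all genes tested 35.1% were called, 16.2% higher and 18.9% lower, against 38.2% of the fatty acid genes, so with TMM the number of calls lies near the background. The median log2 fold change of the 34 genes was 0.04, against 0.00 for all genes tested. Without CDK12 replicate 1 it was 0.01, against 0.00 for all genes. With upper-quartile factors and total counts it was 0.07 and 0.08, and the median of all genes moved too, to 0.04 and 0.05. The groups' libraries did not overlap for 20 of the 34, 10 higher and 10 lower, where 45.6% of all genes tested did not overlap (22.1% higher and 23.6% lower). Without CDK12 replicate 1 there were 6 higher and 9 lower genes. Upper-quartile scaling gave 11 higher and 7 lower of the 34 genes and total counts gave 12 and 7. Over all genes tested they called 5308 and 5388 of 14665, against 5143 with TMM. Size factors of DESeq2 gave 6 higher and 7 lower of the 34 genes and called 5149 of all genes. The nearness to the background was therefore seen with TMM and these size factors, but not with upper-quartile scaling or total counts. Those scalings moved the median of all genes up by 0.0366 and 0.0423 log2, and every fatty acid gene they added was higher. Whether the added calls exceed that common shift was not tested. Over all genes the higher share of the calls was 46.1% with TMM, 59.6% with upper-quartile factors and 61.7% with total counts. The balance of directions among the fatty acid genes therefore rests on the scaling, but no gene called with TMM had the other sign under any of these scalings.

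**Figure D1:**
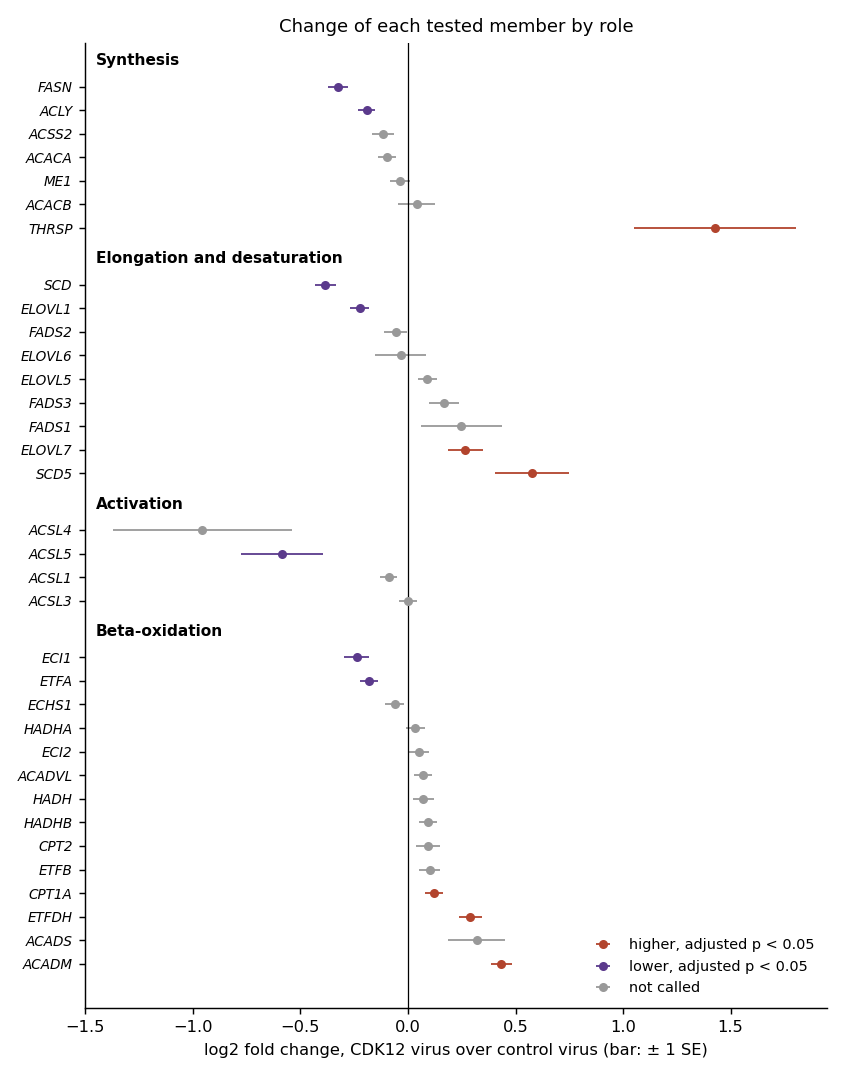
Log2 fold change of the CDK12 libraries over the control libraries (x axis) for the 34 tested genes, grouped by role and sorted within it; points are edgeR estimates, bars ± 1 SE, and colours mark genes called higher, called lower or not called. FASN, ACLY, SCD and ELOVL1 lie left of 0, ACADM and ETFDH right of it, and the wide bars of THRSP and ACSL4 belong to genes under 1 CPM.

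The changes were modest. Among the 13 called genes, 10 had a mean of at least 5 CPM in 1 of the groups, 4 of them higher and 6 lower, and their changes ran from -23.3% for SCD to 35.1% for ACADM. The other 3, THRSP, SCD5 and ACSL5, were scarce, and THRSP was the only called gene with a change of 2-fold or more. The fatty acid genes together took 0.480% to 0.488% of all counts in the CDK12 libraries and 0.509% to 0.521% in the controls. Summed over the 7 synthesis genes, the level was 1758, 1892 and 1904 CPM with the CDK12 virus and 2270, 2118 and 2162 CPM with the control virus, and most of that sum was FASN. The 14 beta-oxidation genes summed to 1475, 1427 and 1434 CPM in the CDK12 libraries and 1363, 1413 and 1400 CPM in the controls. Elongation and desaturation summed to 782, 777 and 713 CPM in the CDK12 libraries and 918, 890.2 and 871 CPM in the controls, and activation to 722, 723 and 685 CPM against 739, 749 and 732 CPM. With TMM the groups did not overlap in any of the 4 sums. The share of 45.6% without overlap holds for single genes, and none was computed for sums of other genes, so the sums have no matched background. Beta-oxidation was higher and the other 3 were lower with the CDK12 virus, and each sum weights its genes by abundance. Most of the elongation and desaturation sum was SCD, which fell. The median log2 fold change of that role was 0.09, and 5 of its 9 tested genes were above 0. The gaps were narrow for beta-oxidation (1427 against 1413 CPM) and activation (723 against 732 CPM). Both gaps are smaller than the shift by the TMM factors, 1.014 to 1.016 in CDK12 libraries and 0.985 to 0.986 in controls. That shift lowers the CDK12 values against the controls, so it widens the gap of activation and narrows that of beta-oxidation. Other scalings were not applied to the sums.

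To compare levels between genes, CPM was divided by the exonic length of each gene in GENCODE 29, which may differ from the annotation behind the counts. On this scale FASN led all 37 genes with 116 ± 7.79 CPM per kb in the CDK12 libraries and 146 ± 8.21 in the controls (SD, n = 3 each). ECHS1, SCD and ACSL1 followed. ECHS1 had 79.4 ± 3.80 CPM per kb in the CDK12 libraries and 82.9 ± 1.14 in the controls, SCD 79.0 ± 6.55 and 103 ± 3.999, and ACSL1 72.5 ± 1.96 and 77.1 ± 0.435, so that in the CDK12 libraries ECHS1 and SCD lay within each other's spread. Within families the levels were far apart: SCD stood far above SCD5 (0.576 ± 0.026 CPM per kb in CDK12 libraries, 0.388 ± 0.042 in controls), ACACA with 24.4 ± 1.22 and 26.1 ± 0.69 far above ACACB with 0.829 ± 0.080 and 0.804 ± 0.027, and FADS2 with 4.88 ± 0.22 and 5.09 ± 0.24 above FADS1 with 0.191 ± 0.031 and 0.161 ± 0.022, the CDK12 value first in each pair.

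**Figure D2:**
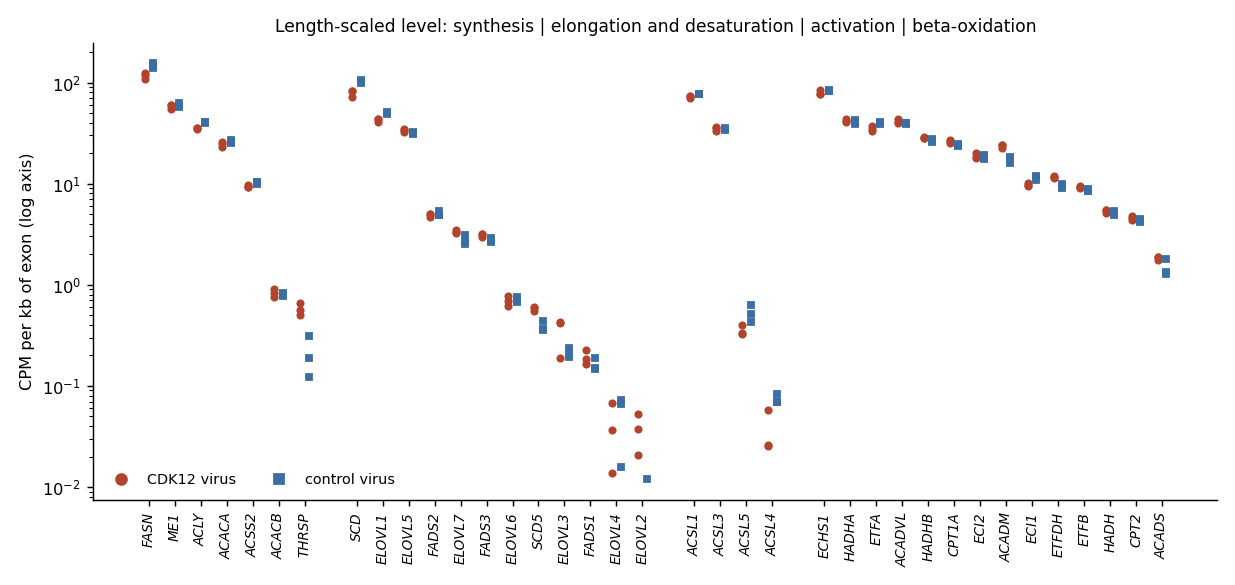
Level of each of the 37 genes in every library as CPM per kb of exon on a log axis (y), grouped by role and sorted by the control mean; circles are CDK12 libraries and squares control libraries, and libraries with no count are not drawn. FASN is highest, ELOVL2 is lowest in the controls, and for most genes the groups lie close together next to the range between genes.

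The promoters were searched for motifs of factors known from lipid genes. RefSeq sequences (GRCh38.p14) of the 250 bases before the start were available for 35 of the 37 genes, all but FASN and ETFDH. The CCAAT box, letters CCAAT on either strand and the site of the factor NF-Y, a partner of SREBP at lipid genes, was present in 13 of the 35 (37.1%) and in 32.0% of all 35116 promoters, those of genes not expressed here included. It was present in 4 of the 6 lower genes with a sequence, SCD, ACLY, ELOVL1 and ETFA, and in 2 of the 5 higher ones, THRSP and SCD5. The rest were ACSL3, HADH, ELOVL5, FADS3 and ACSS2, which were not called, and ELOVL3 and ELOVL4, which were not tested. A link of the box to the direction of change was not tested, and the promoter of THRSP, with 2 boxes, is not printed. The 4 lower promoters and that of SCD5, the sister of SCD that changed the other way, are shown 5′ to 3′ on the gene's strand with the CCAAT box in capitals (ATTGG where it lies on the other strand).
SCD, chr10:100346983-100347232, plus strand: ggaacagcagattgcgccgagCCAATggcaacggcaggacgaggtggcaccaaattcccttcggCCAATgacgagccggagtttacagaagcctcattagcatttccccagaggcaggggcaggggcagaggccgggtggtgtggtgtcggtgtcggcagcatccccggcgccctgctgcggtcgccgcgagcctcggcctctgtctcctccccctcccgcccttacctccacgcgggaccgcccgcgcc
ACLY, chr17:41919023-41919272, minus strand: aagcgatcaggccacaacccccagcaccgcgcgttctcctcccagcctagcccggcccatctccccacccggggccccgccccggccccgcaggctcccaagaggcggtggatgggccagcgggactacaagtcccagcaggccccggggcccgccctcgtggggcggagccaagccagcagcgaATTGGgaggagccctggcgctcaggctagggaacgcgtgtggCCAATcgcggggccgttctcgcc
ELOVL1, chr1:43368012-43368261, minus strand: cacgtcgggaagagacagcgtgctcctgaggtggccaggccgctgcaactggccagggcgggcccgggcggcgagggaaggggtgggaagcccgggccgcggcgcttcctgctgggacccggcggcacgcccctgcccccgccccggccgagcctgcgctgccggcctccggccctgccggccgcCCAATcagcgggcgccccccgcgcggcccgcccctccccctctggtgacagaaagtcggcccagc
ETFA, chr15:76311470-76311719, minus strand: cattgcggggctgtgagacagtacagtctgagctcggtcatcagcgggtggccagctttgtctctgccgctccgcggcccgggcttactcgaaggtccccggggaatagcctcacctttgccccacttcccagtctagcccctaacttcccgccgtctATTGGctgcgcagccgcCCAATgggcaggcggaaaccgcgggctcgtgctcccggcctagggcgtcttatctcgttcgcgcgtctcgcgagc
SCD5, chr4:82798797-82799046, minus strand: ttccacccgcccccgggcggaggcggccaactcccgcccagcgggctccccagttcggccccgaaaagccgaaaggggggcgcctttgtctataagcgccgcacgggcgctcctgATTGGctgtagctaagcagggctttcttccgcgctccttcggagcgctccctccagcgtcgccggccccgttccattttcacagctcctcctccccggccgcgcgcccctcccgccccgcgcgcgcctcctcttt
In SCD the boxes start 229 and 186 bases before the transcript start, in ACLY 65 and 23, in ETFA 92 and 75, in ELOVL1 65 and in SCD5 135. The GC box GGGCGG was present in 28 of the 35 promoters (80.0%) against 42.6% of all promoters, which were not matched to them for GC content or expression. It was in 3 of the 5 higher and 5 of the 6 lower genes with a sequence. The SREBP element TCACNCCAC (in 0.883% of all promoters), the estrogen-related receptor element TNAAGGTCA (0.854%) and the PPAR element DR1, 2 copies of AGGTCA 1 base apart (0.0171%), were found in 0 of the 35, and the E-box CACGTG in 2 (6.34% of all), each searched on both strands. No match means only that these letters are not in this window.

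In the synthesis branch the enzyme genes that were called were lower and the regulator THRSP was higher. FASN, fatty acid synthase, had 1009.7, 1107 and 1152 CPM in the CDK12 libraries, against 1445, 1292 and 1358 CPM in the controls. The highest CDK12 library lay below the lowest control, and FASN fell with a log2 fold change of -0.33 (SE 0.05, a change of -20.2%; edgeR adjusted p = 4.57e-06). ACLY, ATP citrate lyase, which makes the cytosolic acetyl-CoA for the pathway, had 182, 186 and 186 CPM with the CDK12 virus and 214, 211 and 207 CPM with the control virus. It fell as well, with a tight spread in both groups (log2 fold change -0.19, SE 0.04; edgeR adjusted p = 0.000498). ACACA, the carboxylase that makes malonyl-CoA and sets the pace of synthesis, had 301, 333 and 318 CPM in the CDK12 libraries and 349, 337 and 332 CPM in the controls. CDK12 replicate 2 lay above the lowest control, and ACACA did not pass (log2 fold change -0.10, SE 0.04; edgeR adjusted p = 0.0757), and the value depends on single libraries: without that library it passed (-0.13, adjusted p = 0.033), whereas without CDK12 replicate 1 the log2 fold change was -0.06 (adjusted p = 0.299). Without any of the other 4 libraries the adjusted p was 0.0964 to 0.275.

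THRSP encodes a small protein that promotes lipogenesis in liver, fat and breast. It had 16, 19 and 16 counts in the CDK12 libraries and 5, 3 and 9 counts in the controls, or 0.595, 0.783 and 0.667 CPM against 0.220, 0.144 and 0.365 CPM. The groups did not overlap, and THRSP rose with a log2 fold change of 1.43 (SE 0.38; edgeR adjusted p = 0.00419), but its control counts lie close to the 3 counts that a count of 0 allows (0.122 to 0.144 CPM there, counting error only) and it does not enter a fit limited to genes of 1 CPM. The other 3 synthesis genes did not pass. ACSS2, which makes acetyl-CoA from acetate, averaged 50.7 ± 0.82 and 55.0 ± 1.13 CPM in CDK12 and control libraries (edgeR adjusted p = 0.0689), ME1, the malic enzyme that supplies NADPH, 196 ± 10.2 and 201 ± 10.3 CPM, and ACACB, the carboxylase at the mitochondrial surface whose malonyl-CoA restrains the carnitine shuttle, 12.03 ± 1.16 and 11.7 ± 0.386 CPM. In all, 2 of 7 synthesis genes fell (28.6%) and 1 rose (14.3%), against 18.9% and 16.2% of all genes tested. The median of their log2 fold changes was -0.10.

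**Figure D3:**
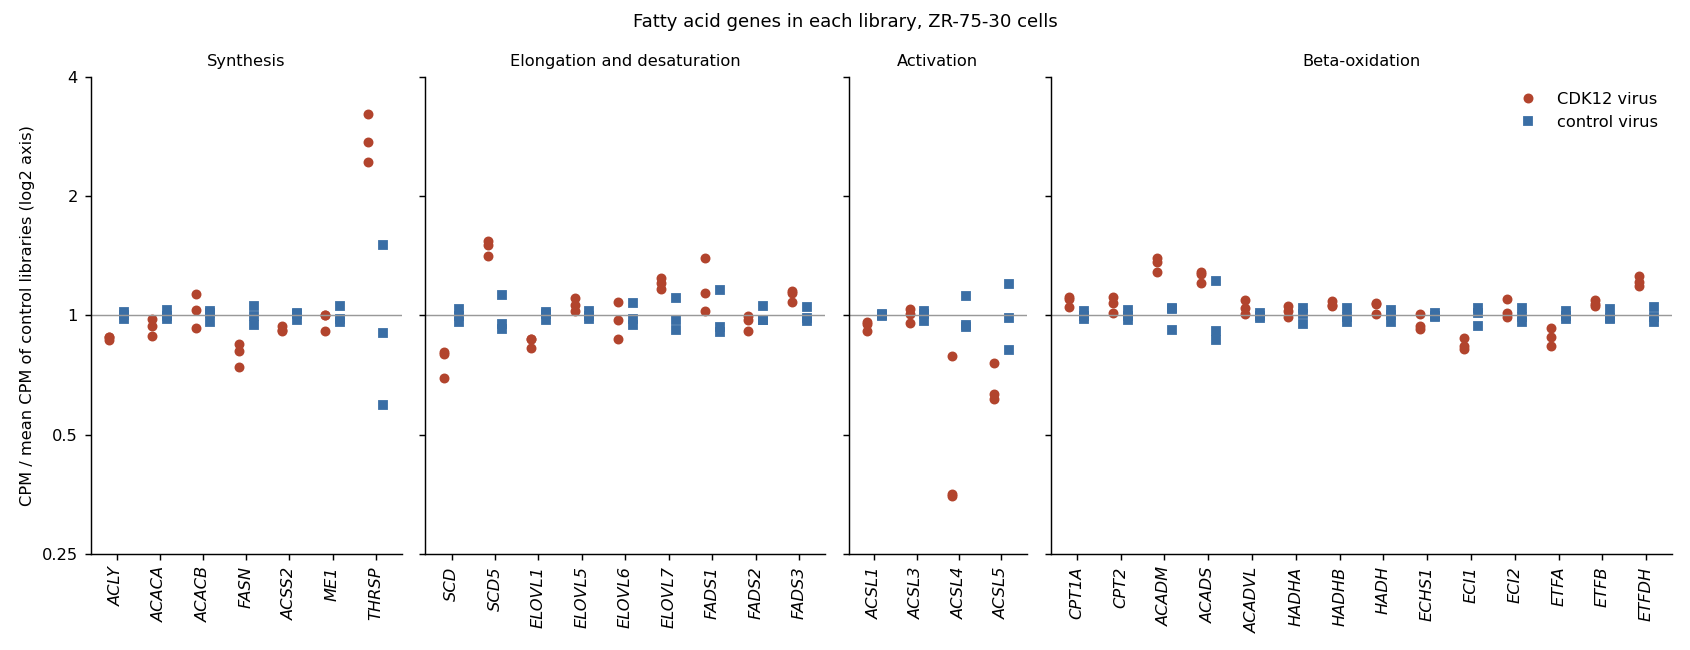
CPM of each tested gene in every library divided by the mean of its 3 control libraries, on a log2 axis, with CDK12 libraries as circles left of control libraries as squares, in panels by role. FASN, SCD, ACLY and ELOVL1 have all CDK12 circles below the control squares, ACADM and ETFDH all above, and the scarce genes THRSP, ACSL4 and ACSL5 spread widely.

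Among desaturases, SCD and SCD5 changed in opposite directions. SCD, stearoyl-CoA desaturase, makes oleate and palmitoleate and is the main desaturase of most tissues. It had 445, 442 and 383 CPM in the CDK12 libraries and 574, 552 and 531 CPM in the controls, and the groups did not overlap. SCD fell with a log2 fold change of -0.38 (SE 0.05, a change of -23.3%; edgeR adjusted p = 4.74e-07), the largest fall of a called gene above 5 CPM in the set. SCD5, a related desaturase best known from brain and pancreas, had 2.56, 2.35 and 2.50 CPM with the CDK12 virus and 1.54, 1.87 and 1.58 CPM with the control virus. It rose with a log2 fold change of 0.58 (SE 0.17; edgeR adjusted p = 0.00992) but its adjusted p was 0.0649 by DESeq2. The log2 ratio of SCD to SCD5 counts, which no scaling of the library touches, was 7.43, 7.54 and 7.25 in the CDK12 libraries and 8.52, 8.19 and 8.37 in the controls, a difference of -0.95 (two-sided exact permutation p = 0.1, 0.125 adjusted over 5 ratios, with 0.1 the smallest possible).

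The FADS desaturase genes, which lie side by side on chromosome 11, were not called; FADS1 and FADS2 act on polyunsaturated fatty acids. FADS2, the entry desaturase, averaged 53.9 ± 2.47 CPM in CDK12 libraries and 56.1 ± 2.68 CPM in controls, and FADS1, which acts later in the same route, 1.96 ± 0.316 and 1.65 ± 0.228 CPM. The log2 ratio of FADS1 to FADS2 overlapped between groups, with means of -4.78 ± 0.238 and -5.08 ± 0.236 (exact permutation p = 0.2). FADS3 had higher values in all CDK12 libraries, 18.7 to 19.97 against 16.8 to 18.2 CPM, without passing (log2 fold change 0.17; edgeR adjusted p = 0.0621), and it passed with upper-quartile factors (0.024) and total counts (0.0197).

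Of the elongases, ELOVL1 fell and ELOVL7 rose. ELOVL1 builds saturated and monounsaturated very long chains for sphingolipids. It had 109, 103 and 109 CPM in the CDK12 libraries and 127, 121 and 126 CPM in the controls, with no overlap (log2 fold change -0.23, SE 0.04; edgeR adjusted p = 0.000193). ELOVL7, an elongase of long saturated chains, had 14.8, 15.4 and 15.8 CPM with the CDK12 virus and 14.1, 12.4 and 11.7 CPM with the control virus. Its groups came close at 14.8 and 14.1 CPM; it rose with a log2 fold change of 0.27 (SE 0.08; edgeR adjusted p = 0.0112) and did not pass without control replicate 3 (adjusted p = 0.0882), which left SCD5 as the 1 higher gene of this role.

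ELOVL5 and ELOVL6 were expressed and not called. ELOVL5, which extends polyunsaturated chains, averaged 128 ± 4.598 CPM in CDK12 libraries and 121 ± 2.70 CPM in controls without overlap (edgeR adjusted p = 0.104), and it passed with upper-quartile factors (0.0223) and total counts (0.017). ELOVL6, which extends palmitate to stearate and is a known SREBP-1 target, averaged 5.03 ± 0.548 and 5.16 ± 0.360 CPM. ELOVL2, ELOVL3 and ELOVL4, elongases of retina, skin, liver and fat, did not pass the filter: ELOVL2 had 4, 2 and 5 counts in CDK12 libraries and 0, 1 and 0 in controls, ELOVL3 had 7, 14 and 14 against 6, 6 and 8, and ELOVL4 had 3, 5 and 1 against 5, 1 and 5. Of the 9 tested genes of this role 2 rose and 2 fell (22.2% each), against 16.2% and 18.9% of all genes tested. Upper-quartile scaling and total counts each gave 4 higher and 2 lower, and both raised the higher share of the calls over all genes as well.

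Of the 4 acyl-CoA synthetases, 1 fell (25%) and 0 rose by edgeR, against 18.9% and 16.2% of all genes tested. At an unadjusted edgeR p under 0.05, 3 were lower and 0 higher. By limma-voom 2 were lower and 0 higher, and by DESeq2 0 and 0. The abundant members were not called. ACSL3, an enzyme of the endoplasmic reticulum and lipid droplets, had 255, 261 and 241 CPM in the CDK12 libraries and 254, 259 and 244 CPM in the controls, which overlap fully (log2 fold change 0.00, SE 0.04). ACSL1, the form that feeds both storage and oxidation, had 442 to 465 CPM with the CDK12 virus and 482 to 487 CPM with the control virus, and with no overlap did not pass (log2 fold change -0.09, SE 0.04; edgeR adjusted p = 0.0767); without CDK12 replicate 1 it did (0.0489). ACSL5, a mitochondrial form, had 1.41, 1.69 and 1.38 CPM in the CDK12 libraries and 2.68, 1.82 and 2.19 CPM in the controls. It fell with a log2 fold change of -0.59 (SE 0.19; edgeR adjusted p = 0.017), and it did not pass with DESeq2 (0.0869), without CDK12 replicate 3 (0.0553) or without control replicate 1 (0.131). ACSL4, which prefers arachidonate and is known from ferroptosis, had 10, 4 and 4 counts in CDK12 libraries and 10, 11 and 11 in controls, and it did not pass (edgeR adjusted p = 0.0738) except without CDK12 replicate 1 (0.0252) or with limma-voom (0.0341).

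In beta-oxidation 3 of 14 genes rose, CPT1A, ACADM and ETFDH, and 2 fell, ECI1 and ETFA; 11 of the 14 had a positive log2 fold change (78.6%, against 50.7% of all genes tested), with a median of 0.08. With TMM 21.4% of the role rose and 14.3% fell, against 16.2% and 18.9% of all genes tested. Upper-quartile factors gave 6 higher and 2 lower, and total counts 7 and 2. The higher share of the calls over all genes grew too, from 46.1% with TMM to 59.6% and 61.7%. Whether the gain in this role exceeds that common shift was not tested. The carnitine shuttle opens the route. CPT1A, the carnitine palmitoyltransferase that controls entry of long chains, had 167, 175 and 178 CPM in the CDK12 libraries and 163, 156 and 158 CPM in the controls. It rose by a small step (log2 fold change 0.12, SE 0.04, a change of 8.75%; edgeR adjusted p = 0.0251), and the call was lost without CDK12 replicate 2 (0.0691), CDK12 replicate 3 (0.0944), control replicate 2 (0.0985) or control replicate 3 (0.0752). CPT2, its partner on the inner membrane, averaged 47.9 ± 2.23 CPM in CDK12 libraries and 44.9 ± 1.41 CPM in controls and was not called.

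The acyl-CoA dehydrogenases carry out the opening step for chains of different length. ACADM, the medium-chain enzyme, had 114, 117 and 108 CPM in the CDK12 libraries and 76.7, 86.6 and 87.3 CPM in the controls. The groups were well apart, and ACADM rose with a log2 fold change of 0.43 (SE 0.05, a change of 35.1%; edgeR adjusted p = 1.11e-07), the largest rise of a called gene above 5 CPM in the set. ACADS, the short-chain enzyme, averaged 4.89 ± 0.172 CPM in CDK12 libraries and 3.89 ± 0.745 CPM in controls; control replicate 3, at 4.75 CPM, lay within the CDK12 range of 4.70 to 5.02 CPM. ACADS did not pass with all libraries (log2 fold change 0.32; edgeR adjusted p = 0.0607), and passed without that control (log2 fold change 0.50, adjusted p = 0.00922), as it did with upper-quartile factors (0.037), total counts (0.0333) and no filter beyond 1 count (0.0498). ACADVL, the very-long-chain enzyme, averaged 201 ± 8.75 and 192 ± 3.00 CPM and was not called with TMM scaling (edgeR adjusted p = 0.214), while with total counts it was (0.0401).

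Neither subunit of the trifunctional protein, which carries out the later steps for long chains, was called. HADHA, its alpha subunit, had 189, 184 and 177 CPM in the CDK12 libraries and 171, 186 and 180.1 CPM in the controls, with overlap (log2 fold change 0.03, SE 0.04; edgeR adjusted p = 0.568). HADHB, the beta subunit, averaged 121 ± 1.86 CPM in CDK12 libraries and 114 ± 4.62 CPM in controls without overlap (edgeR adjusted p = 0.0978), and it passed with upper-quartile factors (0.0207) and total counts (0.0162). The log2 ratio of HADHA to HADHB was 0.597 ± 0.035 in CDK12 libraries and 0.656 ± 0.019 in controls, a difference of -0.06 (exact permutation p = 0.1). ECHS1, the hydratase, and HADH, the dehydrogenase for shorter chains, were not called, with log2 fold changes of -0.06 and 0.07.

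The auxiliary isomerases ECI1 and ECI2 prepare unsaturated chains for oxidation. ECI1 had 32.8, 30.8 and 31.3 CPM in the CDK12 libraries and 35.2, 38.9 and 38.0 CPM in the controls, with no overlap. It fell with a log2 fold change of -0.24 (SE 0.06; edgeR adjusted p = 0.00247), while ECI2 averaged 86.3 ± 4.80 and 83.4 ± 3.31 CPM and was not called.

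The genes of the electron transfer flavoprotein and its oxidoreductase, which pass electrons from the acyl-CoA dehydrogenases to ubiquinone, changed in different directions. ETFA, the alpha subunit, had 186, 176 and 167 CPM in the CDK12 libraries and 195, 205 and 199 CPM in the controls. It fell with a log2 fold change of -0.18 (SE 0.04; edgeR adjusted p = 0.00191). ETFB, the beta subunit, had 59.4 to 61.4 CPM with the CDK12 virus and 55.0 to 58.2 CPM with the control virus, and it was not called (log2 fold change 0.10, SE 0.05; edgeR adjusted p = 0.113), though it was with upper-quartile factors (0.0316) and total counts (0.0241). ETFDH, the oxidoreductase, had 53.7, 50.7 and 51.7 CPM in the CDK12 libraries and 41.0, 44.7 and 42.1 CPM in the controls. It rose with a log2 fold change of 0.29 (SE 0.05; edgeR adjusted p = 0.000121), and 13.8% of its exonic bases lie in exons of genes on the other strand. The log2 ratio of ETFA to ETFB was 1.63, 1.57 and 1.44 in the CDK12 libraries and 1.82, 1.90 and 1.77 in the controls, a difference of -0.28 (exact permutation p = 0.1, 0.125 adjusted over 5 ratios). That of ACACA to ACACB was 4.72 ± 0.068 and 4.86 ± 0.049, a difference of -0.14 (exact permutation p = 0.1).

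**Figure D4:**
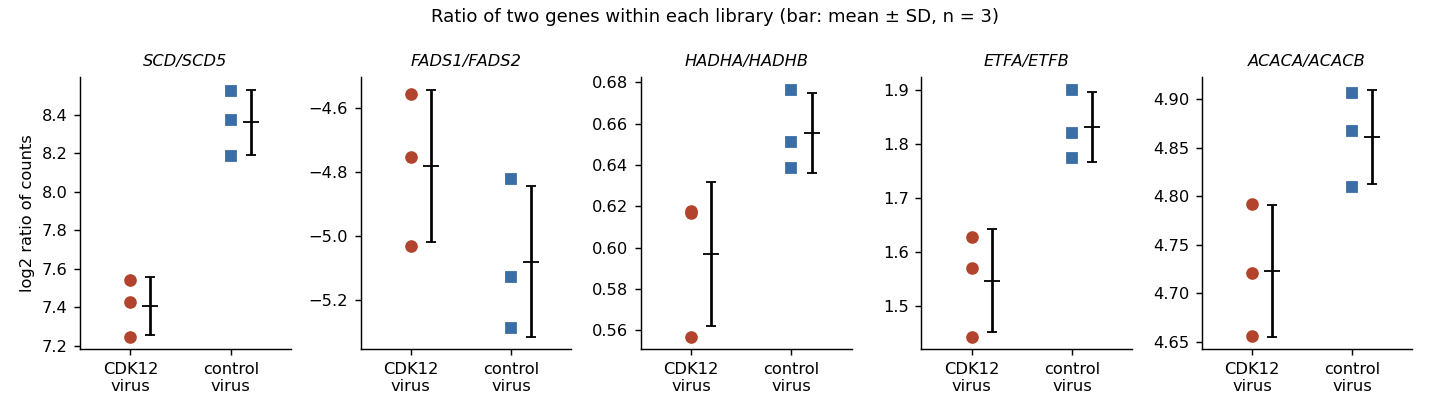
Log2 ratio of the counts of a pair of related genes within each library (y, each panel with its own axis that does not start at 0), CDK12 libraries as circles left of control libraries as squares, with mean ± SD of 3. The groups do not overlap for SCD/SCD5, HADHA/HADHB, ETFA/ETFB and ACACA/ACACB, and they overlap for FADS1/FADS2.

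The 37 genes lie on 14 chromosomes, with 5 each on chromosomes 4, 6 and 11 and 4 on chromosome 17, which also carries CDK12: ACLY and FASN, which fell, and ACACA and ACADVL, which were not called. Exons of 11 of the 37 genes overlap exons of another gene on the opposite strand in GENCODE 29, among them the called genes ACLY, THRSP, ACSL5 and ETFDH. Another 6 overlaps are with a gene on the same strand, among them those of the called genes ACADM (3.28% of its exonic bases, with RABGGTB) and ELOVL1 (2.71%, with MIR6734). Library preparation marked the strand, but the strand setting of the counting is not given in the sources used here, so reads of overlapping partners may be mixed.

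A wider list of 120 further genes of these pathways had 110 tested, of which 15 rose and 24 fell, 35.5% called against 35.1% of all genes. With total counts 23 of them were higher. Among 26 regulators, 6 rose and 6 fell, and with total counts 8 and 4. SREBF1, the gene of SREBP-1, averaged 180.2 ± 2.74 CPM in CDK12 libraries and 175 ± 7.84 CPM in controls and was not called (log2 fold change 0.04; edgeR adjusted p = 0.515). INSIG1, which retains the SREBP complex in the endoplasmic reticulum and is itself an SREBP target, fell to 31.9 ± 1.05 CPM in CDK12 libraries, against 39.4 ± 2.18 CPM in controls (log2 fold change -0.30, SE 0.06), and SREBF2, the gene of SREBP-2, had a log2 fold change of -0.15 (SE 0.04). Of the LXR receptor genes, which sense oxysterols, NR1H3 rose (14.5 ± 0.668 and 10.5 ± 0.629 CPM, log2 fold change 0.47) and NR1H2 fell (109.6 ± 3.47 and 122 ± 1.44 CPM, log2 fold change -0.16).

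Members of the PPAR and AMPK families went both ways. Of the 3 PPAR receptor genes, 1 rose, 1 fell and 1 was not called. PPARA, the receptor that drives oxidation genes in liver, averaged 4.75 ± 0.265 CPM in CDK12 libraries and 2.87 ± 0.377 CPM in controls (log2 fold change 0.73, SE 0.14; edgeR adjusted p = 0.000133). PPARD, a receptor that drives oxidation genes in muscle, averaged 56.9 ± 2.22 and 62.2 ± 3.01 CPM (log2 fold change -0.13, SE 0.05; edgeR adjusted p = 0.0481), and PPARG, the receptor of fat cell formation, 11.3 ± 0.593 and 11.1 ± 0.802 CPM. PPARGC1A, a coactivator of mitochondrial genes, averaged 14.8 ± 1.04 and 11.96 ± 0.765 CPM (log2 fold change 0.31, SE 0.08; edgeR adjusted p = 0.00425), while its relative PPARGC1B was not called (log2 fold change -0.03). Of the 6 subunit genes of the energy sensor AMPK in the list, PRKAB2 (log2 fold change 0.26) and PRKAA2 (0.28) rose, PRKAB1 (-0.18) and PRKAG2 (-0.20) fell, and PRKAA1 (0.12) and PRKAG1 (0.07) were not called. The calls of the falling genes depended on the setting. Among the alternatives PPARD was called only with limma-voom, with the replicate block, and without CDK12 replicate 3 or control replicate 2. PRKAB1 was not called without CDK12 replicate 2 or control replicate 3, and PRKAG2 not with total counts, with DESeq2 or without control replicate 1. With total counts PRKAA1 and PRKAG1 were called higher, and PRKAA1 also with upper-quartile factors, with no filter beyond 1 count and without CDK12 replicate 1. PPARD, PPARG, PPARGC1B and the AMPK genes other than PRKAB2 were named after their values were seen. These are measurements of transcripts, and no activity of these factors was measured.

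Of 13 tested genes of carbon and NADPH supply and of mitochondrial synthesis, 3 fell (23.1%) and 1 rose (7.69%). The shares of all genes tested were 18.9% and 16.2%. Among those that fell, PC, pyruvate carboxylase, had a log2 fold change of -0.25 (edgeR adjusted p = 0.0622 without CDK12 replicate 2), and MECR, the reductase of mitochondrial fatty acid synthesis, -0.23. CBR4, another reductase of that pathway, rose with a log2 fold change of 0.21. SLC25A1, the citrate carrier, averaged 117 ± 3.41 and 128 ± 12.1 CPM and was not called (log2 fold change -0.13; edgeR adjusted p = 0.0516). Control replicate 3 stood apart at 142 CPM, against 124 and 119 CPM in the other controls, and without it the log2 fold change was -0.05 (0.544). SLC25A1 passed without control replicate 1 (0.0486) or control replicate 2 (0.0119) and with no filter beyond 1 count (0.0276). Of 9 partners of the elongation cycle and the desaturases 3 fell (33.3%) and 0 rose by edgeR, DESeq2 and limma-voom. By edgeR 18.9% of all genes tested fell and 16.2% rose. At an unadjusted edgeR p under 0.05, 4 of the partners were lower and 0 higher. HACD2, a dehydratase of the elongation cycle, fell to 43.8 ± 0.693 CPM in CDK12 libraries, against 54.5 ± 3.10 CPM in controls (log2 fold change -0.31, SE 0.05). The cytochrome b5 genes CYB5A (log2 fold change -0.15) and CYB5B (-0.17), whose proteins hand electrons to desaturases and other enzymes, fell too. Both were above 0.05 with upper-quartile factors (edgeR adjusted p = 0.0713 for CYB5A and 0.0694 for CYB5B) and with total counts (0.0841 and 0.0806), which left 1 lower gene in the list and, with total counts, 1 higher. CYB5A was also above 0.05 without CDK12 replicate 2 (0.0537), CDK12 replicate 3 (0.087) or control replicate 3 (0.113), and CYB5B without CDK12 replicate 2 (0.107), control replicate 2 (0.0742) or control replicate 3 (0.0838).

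Genes of uptake and acyl-CoA handling had 4 falls (20%) and 1 rise (5%) among 20 tested, against 18.9% and 16.2% of all genes tested. The acyl-CoA thioesterase genes ACOT7 (log2 fold change -0.39) and ACOT9 (-0.23) fell, and so did SLC27A4, a fatty acid transport protein (-0.24), while ACSF2, an acyl-CoA synthetase of medium chains, rose with 0.14 (edgeR adjusted p = 0.0135, and 0.0786 without control replicate 1). Of 26 other oxidation genes, 4 rose (15.4%) and 5 fell (19.2%) with TMM, against 16.2% and 18.9% of all genes tested. Upper-quartile scaling and total counts each gave 7 higher and 4 lower, and both raised the higher share of the calls over all genes as well. SLC25A20, the carnitine-acylcarnitine carrier, averaged 34.3 ± 1.92 CPM in CDK12 libraries and 30.1 ± 1.11 CPM in controls; it rose with a log2 fold change of 0.19 (SE 0.06; edgeR adjusted p = 0.0177) and was above 0.05 without CDK12 replicate 1 (0.0629), CDK12 replicate 3 (0.0605), control replicate 1 (0.0614) or control replicate 2 (0.0671). EHHADH, a peroxisomal enzyme and PPAR alpha target, ACADSB, a dehydrogenase of branched chains, and ABCD3, a peroxisomal transporter, rose with log2 fold changes of 0.27, 0.15 and 0.13. ACADSB was above 0.05 without CDK12 replicate 2 (edgeR adjusted p = 0.0537) or control replicate 1 (0.0557), and ABCD3 without control replicate 1 (0.106) or control replicate 3 (0.0567). The peroxisomal genes CROT and ACOX3 fell with -0.25 and -0.26, and ACAD9, known as an assembly factor of respiratory complex I, with -0.23.

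Genes of esterification and lipid droplets moved both ways, with 3 of 16 higher and 3 lower, 18.8% each. Over all genes tested 16.2% were higher and 18.9% lower. PLIN2, the coat protein of lipid droplets in most cells, rose to 40.3 ± 0.327 CPM in CDK12 libraries, against 30.6 ± 0.786 CPM in controls (log2 fold change 0.40, SE 0.06; edgeR adjusted p = 3.12e-06). The acyltransferase genes AGPAT1 and DGAT2 rose with log2 fold changes of 0.25 and 0.32 (DGAT2 had an edgeR adjusted p of 0.0607 without control replicate 3), and DGAT1, which like DGAT2 completes triglycerides, fell with -0.24. MGLL, the lipase that releases the last fatty acid of a triglyceride, had 135, 141 and 142 CPM with the CDK12 virus and 200.5, 191 and 195 CPM with the control virus, the smallest p of the wider list (log2 fold change -0.48, SE 0.04; edgeR adjusted p = 5.16e-10). ABHD5, the activator of an earlier lipase of the same cascade, fell with -0.17.

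**Figure D5:**
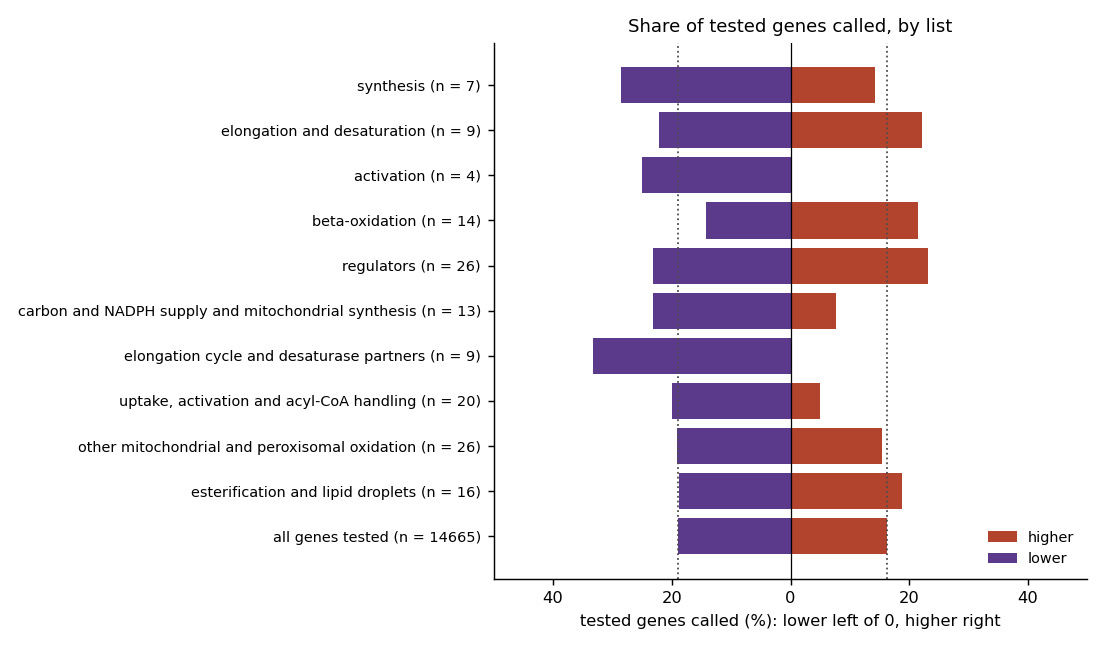
Share of tested genes called in the CDK12 libraries, higher to the right of 0 and lower to the left (x, percent), for the 4 roles, the 6 lists of further genes and all genes tested; n is the number tested and dotted lines mark the shares over all genes, 16.2% higher and 18.9% lower. Over lists of 4 to 26 tested genes the higher shares run from 0% to 23.1% and the lower shares from 14.3% to 33.3%. The lists of 4 and 9 genes with no higher call are small.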

How the data were processed

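Polyadenylated RNA was sequenced in 3 CDK12 and 3 control libraries, per the labels' protocols. The authors deposited raw counts per gene symbol, 1 file per library. They used CASAVA 1.8, STAR 2.6.0c and featureCounts of Subread 1.6.2 with build hg19, per the submitters' processing notes. Which annotation and strand setting were used, and how reads with several matches were counted, is not given in the sources used here. Genes were kept with filterByExpr of edgeR 4.0.16 (minimum count 10, minimum total 15), scaled by TMM and compared with edgeR's quasi-likelihood test with group as the only term, Benjamini-Hochberg over all genes tested, two-sided, threshold 0.05. SE is the log2 fold change divided by the square root of F. The test was checked on simulated counts. Ratios used counts plus 0.5.

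The genes and lists were chosen with earlier results of these data known. Values per library were given for each of the 37 genes that passed the threshold and always for ACACA, FASN, SCD, ACSL3, CPT1A and HADHA. Of the wider list SREBF1, INSIG1, SLC25A1, SLC25A20 and PPARGC1A were always named, and per sublist up to 3 genes with the smallest p in each direction. A gene that this rule names is not reported here. Alternatives were other scalings, filters, DESeq2 1.42.0, limma-voom (limma 3.58.1), the replicate block, CDK12 left out, and each library left out. Coordinates of promoters are GRCh38.p14; lengths and overlaps come from GENCODE 29.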

Additional observations from a re-analysis of the deposited data

How the results depend on the processing

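No call changed direction under any alternative run. Of 304 values of single fatty acid genes under the settings that keep all libraries, 289 kept their side of the threshold, 13 newly passed and 2 no longer passed (SCD5 and ACSL5, DESeq2). Of 204 values with a library left out, 193 kept it, 7 no longer passed and 4 newly passed. The calls of ACLY, FASN, THRSP, SCD, ELOVL1, ACADM, ECI1, ETFA and ETFDH held wherever they were tested. Upper-quartile factors and total counts, which shift the median gene by 0.0366 and 0.0423 log2, gave 11 and 12 higher genes in place of 6, 4 and 4 higher in elongation and desaturation in place of 2, and 6 and 7 higher in beta-oxidation in place of 3; total counts gave 23 higher genes of the wider list in place of 15. With the filter of 1 CPM, THRSP was not tested and 0 synthesis genes were higher. DESeq2 gave 1 higher gene of elongation and desaturation and 0 lower synthetases, limma-voom 2 lower synthetases. Leaving out a library gave 5 to 6 higher and 6 to 9 lower genes, 1 to 2 higher in elongation and desaturation and 0 to 3 lower synthetases. The replicate block gave 6 higher and 7 lower genes and 5106 called of all genes, and SLC25A1 passed with it (adjusted p = 0.0393). Deviations of same-numbered libraries correlated at -0.0675, 0.0597 and 0.0347, and only number 2 correlated best with its own number. These values show no pairing by number, but with 3 libraries per group they cannot exclude one. Of 75 alternative medians of the 4 roles and of all 34 genes, 8 moved beyond the replicate spread. All 35 alternative values of the ratios stayed within the replicate spread. Where an alternative differs, the cause was not tested. Depth limits the genes near 3 counts: ELOVL2, ELOVL4, ACSL4 and THRSP.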

Other observations

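MLXIPL was picked out after its values were seen. It encodes ChREBP, the factor that links glucose to lipogenic genes, and had 4.53, 4.57 and 4.88 CPM in the CDK12 libraries, against 3.34, 3.12 and 3.04 CPM in the controls (log2 fold change 0.56, SE 0.13; edgeR adjusted p = 0.00125). MLX, its partner on DNA, was not called (log2 fold change -0.08). PLIN1, a droplet coat protein typical of fat cells and likewise picked out afterwards, averaged 8.26 ± 0.573 CPM in CDK12 libraries and 4.51 ± 0.132 CPM in controls (log2 fold change 0.88, SE 0.11; edgeR adjusted p = 3.11e-07). The other adipocyte markers did not move with it: ADIPOQ had 0, 0 and 1 counts in CDK12 libraries and 5, 1 and 3 in controls, CIDEC had 5, 4 and 3 against 3, 6 and 2, and LEP had none.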
